A study of Mus musculus with 24 samples.

Results

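Axon guidance genes encode the ligands and receptors by which growing axons, vessels and other moving cells are attracted or repelled. The set described here holds semaphorins, plexins, neuropilins, ephrins, Eph receptors, Slit ligands, Robo receptors, netrins, netrin-G genes and Unc5 receptors. The set was chosen with earlier results of these data known. Its 71 members, among 22943 genes in the table, were taken by patterns of gene symbols. They comprised 20 semaphorins, 9 plexins, 2 neuropilins, 8 ephrins, 14 Eph receptors, 3 Slit genes, 4 Robo genes, 4 netrins, 2 netrin-G genes, 4 Unc5 genes and 1 transcript antisense to Plxna4, Plxna4os1, which the symbol pattern takes in and which encodes no plexin.

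RNA was sequenced from whole uteri of female C57bl/6 mice aged 21 days. The knockouts (KO) were PgrCre+ Ctcf-f/f mice, in which Cre expressed from the progesterone receptor gene Pgr removes a floxed Ctcf, whose protein CTCF binds DNA and anchors the loops of chromatin. The floxed mice were Ctcf-f/f littermates without Cre, so that loss of Ctcf and the presence of the Cre allele cannot be told apart, and Cre is confined to cells that express Pgr. Mice were injected under the skin with 0.5 mg of P4 (progesterone), dissolved in 0.05 ml of sesame oil, or with the same volume of oil alone (vehicle), and were examined 6 hours later. There were 4 KO P4, 4 floxed P4, 8 KO vehicle and 8 floxed vehicle libraries. By their labels they were sequenced in 2 batches, a mixed one of 16 libraries with 4 from every group, and a vehicle-only one of 8 libraries with 4 from each genotype.

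In these families a ligand on or from one cell meets a receptor on another. Class 3 semaphorins are secreted and act through neuropilins and plexins, while other semaphorins are bound to the membrane and meet plexins directly. Ephrins are tethered ligands of the Eph receptor tyrosine kinases, Slits are secreted ligands of Robo receptors, and netrins act through Dcc, neogenin and Unc5 receptors. Outside the nervous system the same genes take part in the growth of vessels and the patterning of epithelia.

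All values are batch-corrected RPKM (reads per kilobase of gene, divided by library depth). The deposited correction added 1 constant per gene and batch, so that differences within a batch keep their scale, while ratios of genes near 0 do not. Depth ranged from 28400000 to 99500000 reads per library, as read from the steps between low values. Ctcf was lower in KO uteri by 1.14 ± 0.06 (log2, SE) after vehicle and by 1.35 ± 0.09 after P4. Pgr, from which Cre is driven, changed by -0.77 ± 0.14 in KO against floxed uteri after vehicle (limma, adjusted p = 0.000235) and by 0.27 ± 0.20 after P4 (adjusted p = 0.373). Uterine markers were present in every group: the summed level of 14 stroma markers ranged from 1474 to 3658 RPKM over all libraries, that of 10 smooth muscle markers from 1337 to 2351 RPKM, and that of 14 epithelium markers from 347 to 683 RPKM. In 5 libraries (KO vehicle 9 and 12, KO P4 8, floxed vehicle 3 and floxed P4 7) markers of oviduct or squamous epithelium had stood out in earlier results of these data. Over all libraries the summed level of 8 oviduct markers ranged from 16.5 to 452 RPKM, and that of 10 adipose markers from 5.18 to 1851 RPKM. Calls that are lost without those 5 libraries are named with the comparisons. In a bulk sample, fewer cells of a type and less RNA per cell cannot be told apart.

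Robo3, Sema4f and Plxnc1 were higher in KO uteri and low in floxed uteri, and Slit3 was lower in KO uteri. In floxed uteri Sema3a and Sema3c moved in opposite directions after P4. Promoters of these members, which lead the comparisons, are shown first. Each is the RefSeq window of 300 bases on GRCm38.p6, from 250 bases before to 50 bases after an annotated start, read 5′ to 3′ on the strand of the gene. For Sema3a and Sema3c the whole window, and for Slit3 most of it, lies inside the gene as GENCODE M21 draws it. Capitals mark matches to AGGNGGC, a core of the CTCF consensus, or to ACANNNTGT, a steroid receptor half-site palindrome, searched on both strands.
Robo3, chr9:37433126-37433425, minus strand: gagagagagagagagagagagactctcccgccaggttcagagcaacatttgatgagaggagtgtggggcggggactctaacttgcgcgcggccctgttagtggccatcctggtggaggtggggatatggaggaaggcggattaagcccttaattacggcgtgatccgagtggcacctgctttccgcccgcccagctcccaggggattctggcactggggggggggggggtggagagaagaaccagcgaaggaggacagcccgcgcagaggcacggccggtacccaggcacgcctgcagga
Sema4f, chr6:82939720-82940019, minus strand: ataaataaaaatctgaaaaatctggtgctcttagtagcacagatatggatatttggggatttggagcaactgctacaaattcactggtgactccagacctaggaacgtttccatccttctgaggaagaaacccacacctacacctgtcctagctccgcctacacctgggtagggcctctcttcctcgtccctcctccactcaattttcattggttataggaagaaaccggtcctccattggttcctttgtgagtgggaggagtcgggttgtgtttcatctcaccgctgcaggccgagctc
Plxnc1, chr10:94944796-94945095, minus strand: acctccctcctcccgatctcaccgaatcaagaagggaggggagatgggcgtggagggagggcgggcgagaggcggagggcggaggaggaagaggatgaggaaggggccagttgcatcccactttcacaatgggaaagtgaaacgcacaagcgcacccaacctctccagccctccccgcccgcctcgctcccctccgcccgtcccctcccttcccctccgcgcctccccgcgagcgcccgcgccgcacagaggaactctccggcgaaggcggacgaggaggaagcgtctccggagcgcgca
Slit3, chr11:35121206-35121505, plus strand: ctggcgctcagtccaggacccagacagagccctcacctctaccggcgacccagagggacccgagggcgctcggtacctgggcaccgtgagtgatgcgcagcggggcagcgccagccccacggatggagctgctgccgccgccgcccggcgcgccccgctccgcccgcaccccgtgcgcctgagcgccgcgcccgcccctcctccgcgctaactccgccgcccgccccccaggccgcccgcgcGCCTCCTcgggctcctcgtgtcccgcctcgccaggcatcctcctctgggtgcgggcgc
Sema3a, chr5:13396534-13396833, plus strand: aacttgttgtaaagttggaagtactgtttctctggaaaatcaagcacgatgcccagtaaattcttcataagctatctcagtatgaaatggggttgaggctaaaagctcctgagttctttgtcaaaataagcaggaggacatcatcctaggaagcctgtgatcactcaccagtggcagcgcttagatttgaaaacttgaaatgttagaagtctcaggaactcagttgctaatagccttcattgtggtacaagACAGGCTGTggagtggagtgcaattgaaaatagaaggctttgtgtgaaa
Sema3c, chr5:17574566-17574865, plus strand: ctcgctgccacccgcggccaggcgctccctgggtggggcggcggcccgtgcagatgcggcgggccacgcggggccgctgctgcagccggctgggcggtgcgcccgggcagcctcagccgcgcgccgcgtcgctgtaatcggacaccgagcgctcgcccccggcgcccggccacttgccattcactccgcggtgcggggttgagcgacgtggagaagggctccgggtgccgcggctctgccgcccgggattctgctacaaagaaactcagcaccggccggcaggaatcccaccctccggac
AGGNGGC stood in 29.4% of 32851 promoters of this length and in 37 of 77 promoters of members (48.1%), which belong to 61 genes. ACANNNTGT, which is its own reverse complement, stood in 6.85% of all promoters and in 4 of the 77 (5.19%). Of the 6 windows above, Slit3 held 1 AGGNGGC on the reverse strand and Sema3a held 1 ACANNNTGT. Such a match is a description of letters and not a binding site. The windows of Slit3 and Sema3c are rich in G and C, at 78.3% and 75.7%, against 41.3% in Sema3a and 48.7% in Sema4f.

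A gene was tested where it reached 1 RPKM in at least 4 libraries. This held for 61 of the 71 members and for 14284 of all genes. The other 10 were Epha10, Epha5, Epha6, Ntn5, Ntng1, Plxna4os1, Plxnb3, Slit1, Unc5a and Unc5d, none of which had a median above 0.482 RPKM over the 24 libraries. Tested without the filter, 3 of the 10 were called in KO against floxed uteri after vehicle. In that fit 2467 of all 22943 genes were called higher and 1890 lower. Epha6, an Eph receptor, had 0.0307 to 0.106 RPKM in KO vehicle libraries against 0.174 to 0.408 RPKM in floxed vehicle libraries, with no overlap (log2 change -0.42 ± 0.05, limma, adjusted p = 2.04e-06). Unc5d changed by -0.37 and Slit1 by 0.54 (adjusted p = 0.00234 and 0.00149), both at levels below 1 RPKM, where the added constant weighs on the change. In floxed vehicle uteri the highest mean level of each family belonged to Plxnb2 (43.3 RPKM), Sema5a (34.4 RPKM), Ephb4 (33.2 RPKM), Nrp1 (31.2 RPKM), Efnb2 (24.1 RPKM), Ntn1 (23.8 RPKM), Slit3 (15.8 RPKM), Robo4 (12.6 RPKM), Ntng2 (5.87 RPKM) and Unc5b (4.88 RPKM). Ephb4 and Efnb2, a receptor and ligand pair known from arteries and veins, and Plxnd1, an endothelial receptor of Sema3e, were thus among the highest members. The libraries of a group are not stated to be separate animals, so p-values measure the spread between these samples. Tests were two-sided with limma across all tested genes on log2(RPKM + 0.5), and a change was called at a Benjamini-Hochberg adjusted p below 0.05. Values are given as RPKM, and differences as log2 fold changes with their SE unless stated otherwise.

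The first comparison asked how KO uteri differed from floxed uteri after vehicle. Robo3, Sema4f and Plxnc1, with means of at most 0.971 RPKM in floxed uteri, were higher in KO uteri, together with 4 of 8 ephrins, 3 of 4 Robo receptors and Slit2. Robo3 and Sema4f reached 1 RPKM in KO libraries alone, with at most 0.549 and 0.405 RPKM in floxed libraries. They were thus tested only because they are high in KO uteri, and the direction of their calls carries this selection. Slit3, all 3 tested netrins, Nrp1 and Ephb3 were lower. In all, 17 of 61 tested members were called higher (27.9%, against 13.1% of all tested genes) and 14 lower (22.95%, against 11.5%; 24.6% of all tested genes in either direction). The median log2 fold change was 0.02 over members and -0.01 over all tested genes, since the changes went both ways.

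**Figure D1:**
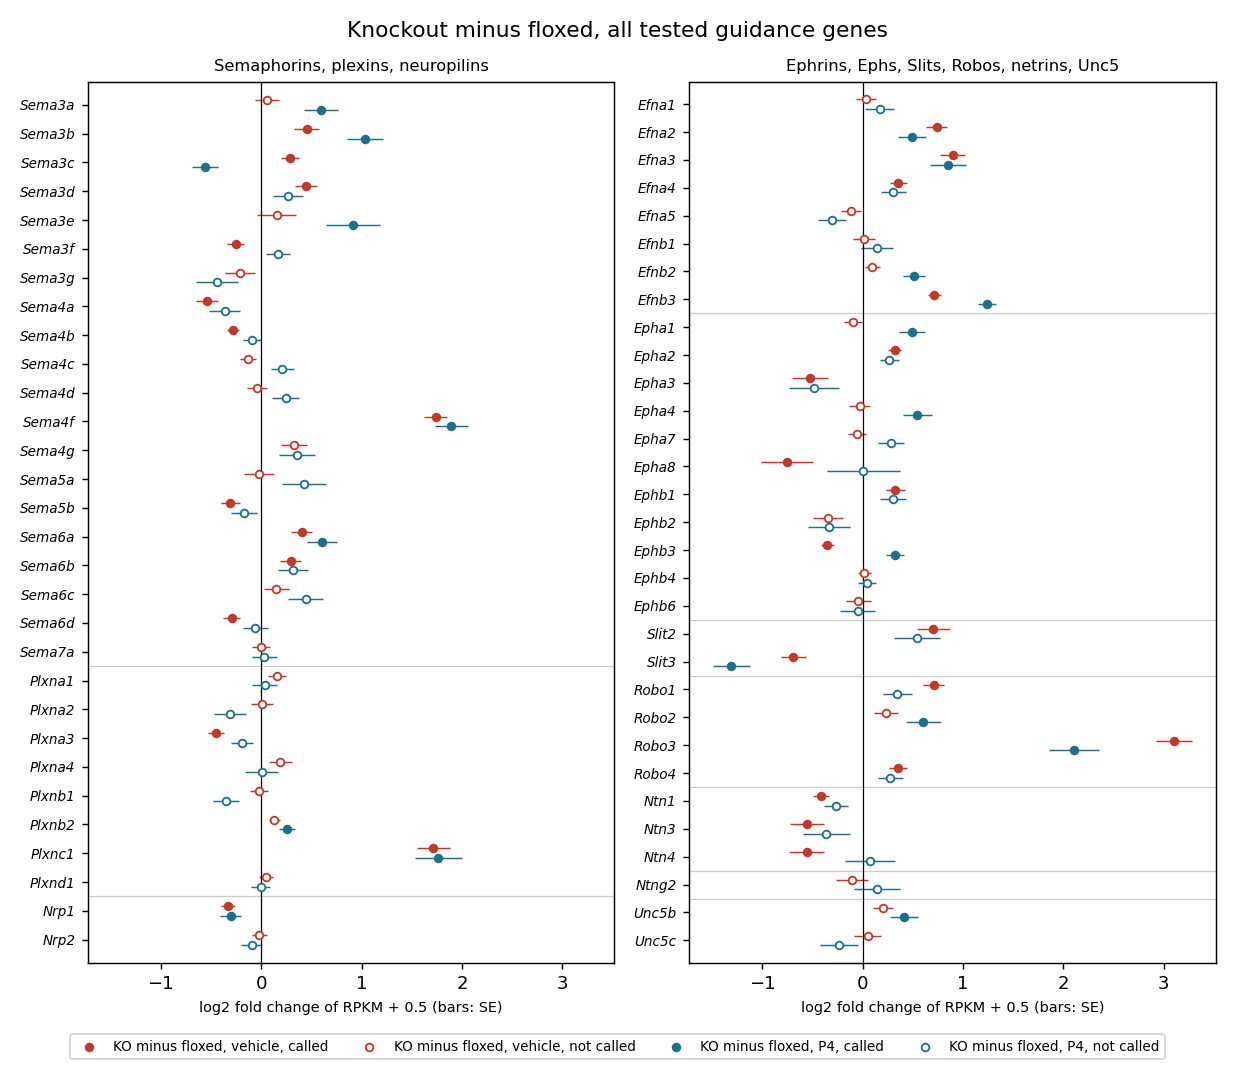
The plot gives the log2 fold change of KO minus floxed uteri (horizontal axis, with SE bars) for the 61 tested members, in vehicle uteri in red and in P4 uteri in blue, with filled points for called changes. Robo3, Sema4f and Plxnc1 lie far to the right in both comparisons, Slit3 lies to the left in both, and Sema3c and Ephb3 lie on opposite sides of 0.

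Among the Robo receptors, Robo3 (chr9:37415669-37433246, minus strand, GRCm38) steers axons across the midline of the nervous system and in mammals binds Slits poorly. KO vehicle libraries had 4.05 to 7.55 RPKM (median 5.62), against -0.38 to 0.55 RPKM (median 0.10) in floxed vehicle libraries. The groups did not overlap. A fold cannot be read for this gene, because the floxed values are little more than the constant of the batch correction. The difference was 5.65 ± 0.41 RPKM (SE), with 4.77 RPKM in the mixed batch and 6.52 RPKM in the vehicle-only batch, and limma gave an adjusted p of 1.92e-11. Its neighbour Robo4, an endothelial Robo, lies tail to tail with it on chromosome 9, with 553 bases between the gene ends. Robo4 had 12.5 to 20.0 RPKM in KO vehicle libraries and 10.98 to 14.4 RPKM in floxed vehicle libraries, a change of 0.35 ± 0.09 (adjusted p = 0.00462). The summed level of 14 endothelial markers was 434 to 631 RPKM in KO vehicle and 385 to 481 RPKM in floxed vehicle libraries, with 4 markers called higher and 1 lower, and its part in the Robo4 change was not tested. Robo1, a main receptor of Slits, had 12.2 to 17.3 RPKM (median 14.8) in KO vehicle libraries against 6.36 to 11.3 RPKM (median 9.06) in floxed vehicle libraries, with no overlap, a change of 0.71 ± 0.10 (adjusted p = 1.74e-05). Robo2, which lies 846 kb from Robo1 on chromosome 16, changed by 0.23 and was not called.

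The 2 tested Slit ligands went in opposite directions. Slit3 (chr11:35121224-35708507, plus strand) had 7.00 to 14.8 RPKM (median 8.77) in KO vehicle libraries against 10.5 to 19.4 RPKM (median 15.7) in floxed vehicle libraries, a change of -0.69 ± 0.13 (adjusted p = 0.000286). The groups overlapped in their tails. Slit2 had 4.51 to 10.01 RPKM (median 7.05) in KO vehicle libraries against 3.07 to 5.09 RPKM (median 4.20) in floxed vehicle libraries, a change of 0.71 ± 0.16 (adjusted p = 0.00233). Within the batches the differences kept their sign, at -7.32 and -4.88 RPKM for Slit3 and at 3.39 and 2.77 RPKM for Slit2 in the mixed and the vehicle-only batch.

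Of 20 semaphorins, 6 were called higher and 5 lower. Sema4f (chr6:82911885-82939769, minus strand), a membrane-bound semaphorin known from neurons, had 1.28 to 2.85 RPKM (median 1.79) in KO vehicle libraries against 0.125 to 0.405 RPKM (median 0.212) in floxed vehicle libraries. The groups did not overlap, and the change was 1.74 ± 0.12 (adjusted p = 2.27e-10). The difference was 1.92 RPKM within the mixed batch and 1.57 RPKM within the other. Sema3b, Sema3c, Sema3d, Sema6a and Sema6b were the others called higher, by 0.29 to 0.45. Sema4a was lower, at -0.54 ± 0.11 (adjusted p = 0.000758), and Sema3f, Sema4b, Sema5b and Sema6d were lower, at -0.25 to -0.31. The secreted semaphorins Sema3d, Sema3a and Sema3e follow one another on chromosome 5 within 2 Mb, and of these Sema3d was called (0.45 ± 0.10, adjusted p = 0.00276), while Sema3a and Sema3e changed by 0.06 and 0.15.

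Plxnc1 (chr10:94790866-94944835, minus strand), the receptor of Sema7a, was the called plexin of the higher group. KO vehicle libraries had 3.22 to 7.04 RPKM (median 3.79) against 0.459 to 1.54 RPKM (median 1.01) in floxed vehicle libraries, with no overlap, and the change was 1.71 ± 0.16 (adjusted p = 5.12e-08). The difference was 4.03 RPKM within the mixed batch and 2.55 RPKM within the other. Its ligand Sema7a had a mean of 17.6 RPKM in both KO and floxed vehicle libraries. Plxnc1 is also found on leukocytes, and the summed level of 15 leukocyte markers was 273 to 492 RPKM in KO vehicle libraries against 128 to 213 RPKM in floxed vehicle libraries, with 12 of 13 tested markers called higher. The part of the leukocyte markers in the Plxnc1 change was not tested. Plxna3 was lower, at -0.45 ± 0.08 (adjusted p = 0.00016), and Nrp1, a co-receptor of class 3 semaphorins and of VEGF, was lower at -0.33 ± 0.07 (adjusted p = 0.00173), with 20.7 to 27.5 RPKM in KO vehicle and 27.2 to 36.0 RPKM in floxed vehicle libraries.

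Markers of nerve and glia also stood higher in KO libraries: the 12 markers summed to 32.6 to 44.5 RPKM in KO vehicle against 14.2 to 24.8 RPKM in floxed vehicle libraries. The sum followed 1 gene, Uchl1, with a median of 21.2 RPKM in KO vehicle and 4.75 RPKM in floxed vehicle libraries. The Schwann cell factor Sox10 had medians of 0.693 and 0.85 RPKM in KO and floxed vehicle libraries. Of 7 tested markers of this list, 1 was called higher, and 1 marker in KO and 2 in floxed vehicle libraries had a mean below 0.1 RPKM. The part of nerve in the levels of Robo3 and Sema4f was not tested.

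Of the 8 ephrins, 4 were called higher. Efnb3 (chr11:69554092-69560205, minus strand), a transmembrane ephrin, had the highest level of them, with 26.5 to 33.2 RPKM (median 29.6) in KO vehicle libraries against 15.6 to 19.8 RPKM (median 17.4) in floxed vehicle libraries. No KO library reached down to the floxed range, and the change was 0.71 ± 0.06 (adjusted p = 2.08e-08). Efna3 had 1.59 to 2.53 RPKM against 0.491 to 1.43 RPKM in KO and floxed vehicle libraries, a change of 0.90 ± 0.13 (adjusted p = 1.03e-05), again without overlap. Efna2 changed by 0.74 ± 0.10 (adjusted p = 7.72e-06), and Efna4 by 0.36 ± 0.09 (adjusted p = 0.00382). Efna1, Efna3 and Efna4 lie side by side on chromosome 3, with 32.8 kb and 10.4 kb between them, and Efna1 at the end of the row had means of 15.7 and 15.4 RPKM in KO and floxed vehicle libraries. The exons of Efna3 share 344 bases with the antisense gene Gm15998, and those of Efna4 share 168 bases with another antisense gene. Because the strand setting of the counting is not stated, reads of such pairs cannot be told apart.

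Of 11 tested Eph receptors, the tyrosine kinases that bind ephrins, 2 were called higher and 3 lower. Ephb3, a receptor known from intestinal epithelium, had 5.89 to 7.89 RPKM (median 7.01) in KO vehicle libraries against 7.99 to 10.5 RPKM (median 8.85) in floxed vehicle libraries, with no overlap, a change of -0.35 ± 0.06 (adjusted p = 0.000249). Epha2 was higher by 0.32 ± 0.07 and Ephb1 by 0.32 ± 0.09 (adjusted p = 0.00114 and 0.0125), while Epha3 and Epha8 were lower, at -0.52 and -0.75. In the vehicle-only batch alone Epha3 turned to 0.07 and Epha8 changed by -0.22, and neither was called there (adjusted p = 0.907 and 0.794). Efnb2 and Ephb4, the arterial and venous pair, changed by 0.10 and 0.02 and were not called.

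Of the netrins, which are laminin-like secreted guidance proteins, all 3 tested members were lower. Ntn1 had 13.9 to 20.6 RPKM (median 18.6) in KO vehicle libraries and 20.0 to 27.6 RPKM (median 23.6) in floxed vehicle libraries, a change of -0.42 ± 0.08 (adjusted p = 0.000674). Ntn3 and Ntn4 changed by -0.55 ± 0.17 and -0.56 ± 0.17 (adjusted p = 0.017 and 0.0217). Within the mixed batch they changed by -2.28 and -2.22 RPKM, and within the vehicle-only batch by -0.35 and -5.07 RPKM. Ntn3 was not called in the vehicle-only batch (adjusted p = 0.846), and Ntn4 in neither batch alone (adjusted p = 0.256 in the mixed and 0.152 in the vehicle-only batch). The netrin receptors Unc5b and Unc5c changed by 0.21 and 0.05 and were not called. Ntn3 shares 89 exon bases with Tbc1d24 on the same strand, and Tbc1d24 changed by -0.13 (adjusted p = 0.326).

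Of the 31 calls, 27 held in each of 24 fits that left out 1 library. Epha3, Epha8, Sema3f and Sema6b lost theirs in 8, 9, 6 and 16 of these fits, with adjusted p up to 0.0816, 0.0878, 0.0727 and 0.106. In the vehicle-only batch alone 11 of the 31 remained called, in the mixed batch alone 22, and without the 5 libraries with oviduct or squamous markers 23. The last step lost Epha3, Epha8, Ntn3, Ntn4, Sema3c, Sema3f, Sema5b and Sema6b, at adjusted p from 0.057 (Sema3f) to 0.185 (Epha3). In the mixed batch alone Efna4, Ephb1, Sema6a and Sema6b changed by 0.14, 0.11, 0.21 and 0.08 and were not called. In the vehicle-only batch alone Nrp1 and Sema5b changed by -0.17 and -0.13 and were not called, and Slit3, at -0.56, was not called (adjusted p = 0.23). Robo4 changed by 0.24 there and was not called (adjusted p = 0.444). Sema3b and Sema3d kept their sign but were called in neither batch alone. Their adjusted p was 0.0857 and 0.129 in the mixed batch, and 0.121 and 0.0593 in the vehicle-only batch.

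Genes of the guidance pathway outside the families were counted in the same comparison. Of 19 tested co-receptors and other ligands, 3 were higher (15.8%, against 13.1% of all tested genes) and 4 lower (21.1%, against 11.5%). Nrcam, an adhesion molecule that joins neuropilin complexes, changed by 1.02 ± 0.08 and Rgmb, a neogenin ligand, by -0.91 ± 0.09 in KO against floxed vehicle uteri. Of 51 tested signalling genes 7 were higher (13.7%) and 6 lower (11.8%), close to the shares of all tested genes. Among these Fyn, a kinase downstream of plexins and Ephs, changed by 0.52 ± 0.05 (adjusted p = 1.33e-07).

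The same genotype comparison was made 6 hours after P4. Robo3, Sema4f and Plxnc1 were again higher in KO uteri, along with Efnb3, Sema3b, Sema3e and Efna3. Here too Robo3 and Sema4f had passed the filter only through KO libraries. Slit3 was lower. In all, 17 of 61 members were called higher (27.9%, against 12.3% of all tested genes) and 3 lower (4.92%, against 7.06%). In either direction 19.4% of all tested genes were called. With quantile normalization 14 members were higher and 6 lower, and of all 14284 tested genes 1470 were higher and 1319 lower. The median log2 fold change was 0.21 over members and 0.03 over all genes.

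**Figure D2:**
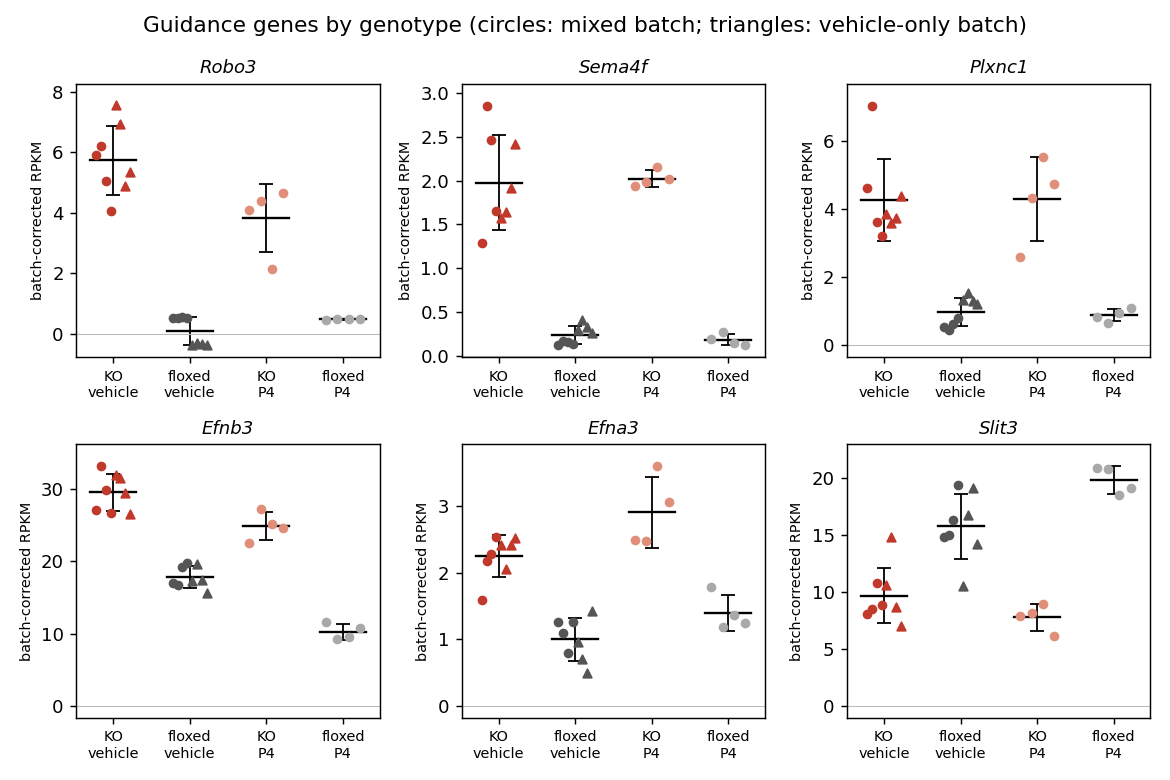
Each panel gives the batch-corrected RPKM of 1 member in every library, for KO vehicle, floxed vehicle, KO P4 and floxed P4 uteri, with the mean and SD as bars, circles for the mixed batch and triangles for the vehicle-only batch. The KO points of Robo3, Sema4f and Plxnc1 stand apart from the floxed points under both treatments, and Slit3 is lower in KO libraries.

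Robo3 had 4.10, 4.38, 2.15 and 4.66 RPKM in KO P4 libraries against 0.466, 0.478, 0.470 and 0.469 RPKM in floxed P4 libraries. The 4 floxed P4 values spanned 0.0127 RPKM, at the constant of the correction. The difference was 3.35 ± 0.59 RPKM (limma on log2 values, adjusted p = 2.02e-06), and no fold can be read. Sema4f had 1.94, 1.98, 2.15 and 2.02 RPKM in KO P4 libraries against 0.186, 0.265, 0.146 and 0.126 RPKM in floxed P4 libraries, a change of 1.89 ± 0.16 (adjusted p = 2.47e-08). Plxnc1 had 2.61, 4.33, 5.53 and 4.75 RPKM in KO P4 libraries against 0.842, 0.652, 0.951 and 1.09 RPKM in floxed P4 libraries, a change of 1.77 ± 0.23 (adjusted p = 1.01e-05). None of the 3 overlapped between genotypes. The leukocyte sum was 201 to 511 RPKM in KO P4 against 130 to 228 RPKM in floxed P4 libraries, with 12 of 13 tested markers higher, and the nerve and glia sum 36.6 to 53.5 RPKM against 14.9 to 18.2 RPKM, with Uchl1 at medians of 33.4 and 5.84 RPKM in KO and floxed P4 libraries. Their part in these changes was not tested.

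Slit3 had 7.90, 8.14, 8.91 and 6.14 RPKM in KO P4 libraries against 20.9, 20.8, 18.5 and 19.1 RPKM in floxed P4 libraries. Every KO library was below every floxed library, and the change was -1.31 ± 0.18 (adjusted p = 1.67e-05). Slit2 changed by 0.54 and was not called. Among the Robo receptors Robo2 was called, with 3.91, 3.28, 2.72 and 2.33 RPKM in KO P4 libraries against 2.21, 2.12, 1.57 and 1.42 RPKM in floxed P4 libraries, a change of 0.61 ± 0.17 (adjusted p = 0.0164). That call was lost without KO P4 library 4 or floxed P4 library 9 (adjusted p up to 0.0655). Robo1 changed by 0.35 and Robo4 by 0.28, and neither was called.

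Among the ephrins, Efnb3 had 22.5, 27.2, 25.2 and 24.6 RPKM in KO P4 libraries against 11.6, 9.23, 9.48 and 10.7 RPKM in floxed P4 libraries. The groups lay apart by more than 10 RPKM, and the change was 1.24 ± 0.09 (adjusted p = 2.57e-09). Efna3 changed by 0.85 ± 0.18, Efnb2 by 0.51 ± 0.11 and Efna2 by 0.49 ± 0.14 (adjusted p = 0.00157, 0.0016 and 0.018). The Efna2 call was lost without floxed P4 library 7 or KO P4 library 6 (adjusted p up to 0.0519). Efna4, called after vehicle, changed by 0.31 and was not called.

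Of the semaphorins, Sema3b, a secreted one, had 4.92, 7.30, 5.45 and 7.97 RPKM in KO P4 libraries against 2.82, 2.76, 3.28 and 2.46 RPKM in floxed P4 libraries, a change of 1.03 ± 0.18 (adjusted p = 0.000211). Sema3e changed by 0.91 ± 0.27, Sema6a by 0.60 ± 0.15 and Sema3a by 0.60 ± 0.16 (adjusted p = 0.0193, 0.00577 and 0.0129). The Sema3a call was lost without KO P4 library 4 (adjusted p = 0.061), and the Sema3e call without KO P4 library 4, KO P4 library 5 or floxed P4 library 2 (up to 0.0583). Sema3c, higher in KO uteri after vehicle, was lower after P4, with 38.5, 35.9, 29.2 and 34.2 RPKM in KO P4 libraries against 46.8, 50.1, 54.3 and 52.0 RPKM in floxed P4 libraries, a change of -0.56 ± 0.13 (adjusted p = 0.00282). Its difference after vehicle was 10.8 RPKM in the mixed batch and 1.57 RPKM in the vehicle-only batch, where it was not called (adjusted p = 0.801).

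Of the receptors, Epha1, Epha4 and Ephb3 were called higher, by 0.49 ± 0.13, 0.55 ± 0.14 and 0.32 ± 0.09 (adjusted p = 0.00819, 0.00876 and 0.0143). Ephb3 lost its call without floxed P4 library 2 (adjusted p = 0.0642). Unc5b, Plxnb2 and Nrp1 were called at 0.41, 0.26 and -0.30, and lost the call in 10, 6 and 8 of 24 fits that left out 1 library, with adjusted p up to 0.118, 0.105 and 0.162. None of the 3 tested netrins was called after P4, at -0.27, -0.36 and 0.08 for Ntn1, Ntn3 and Ntn4. Of the 20 calls, 12 held in each of 24 fits that left out 1 library. On the RPKM scale Robo2, Nrp1 and Unc5b were not called (adjusted p = 0.136, 0.0686 and 0.0973), and without the 5 libraries with oviduct or squamous markers Efna2, Ephb3, Nrp1 and Unc5b were not (adjusted p = 0.0989, 0.114, 0.072 and 0.085). Of 51 signalling genes 8 were higher (15.7%, against 12.3% of all tested genes) and 6 lower (11.8%, against 7.06%). Of 19 co-receptors and other ligands 3 were higher (15.8%) and 4 lower (21.1%), with L1cam at 0.94 ± 0.14 and Tgfbr3 at -0.99 ± 0.15.

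The 2 genotype comparisons contrast different libraries but come from 1 model of all 24 libraries, with a shared estimate of spread. Their calls are therefore not independent. The Nrp1 call after P4, for example, was lost without floxed vehicle library 1b (limma, adjusted p = 0.0511). Of the 17 members higher in KO uteri after vehicle and the 17 higher after P4, 8 were the same (47.1% of each): Efna2, Efna3, Efnb3, Plxnc1, Robo3, Sema3b, Sema4f and Sema6a. Over all tested genes 1064 were higher in both, or 56.7% of those higher after vehicle and 60.5% of those higher after P4. Nrp1 and Slit3 were lower in both, and Sema3c and Ephb3 were called in opposite directions.

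The response to P4 was then read within each genotype. In floxed uteri most called members were lower after P4: 26 of 61 were lower (42.6%, against 15.1% of all tested genes) and 3 were higher (4.92%, against 7.84%; 23% in either direction). The median log2 fold change was -0.26 over members and -0.06 over all genes. Quantile normalization called 13 members lower and 3 higher, and of all 14284 tested genes 1608 lower and 1395 higher. Every family other than the netrins and the netrin-G gene had a member called lower. In KO uteri 13 of 61 were lower (21.3%, against 4.66%) and 2 higher (3.28%, against 4%; 8.67% in either direction), with a member median of -0.13 against -0.02. Without the 5 libraries with oviduct or squamous markers 2 of these 15 members, Robo1 and Robo3, remained called in KO uteri, both lower. In that fit 197 of 14284 tested genes were called lower and 201 higher, against 666 and 572 with all libraries.

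**Figure D3:**
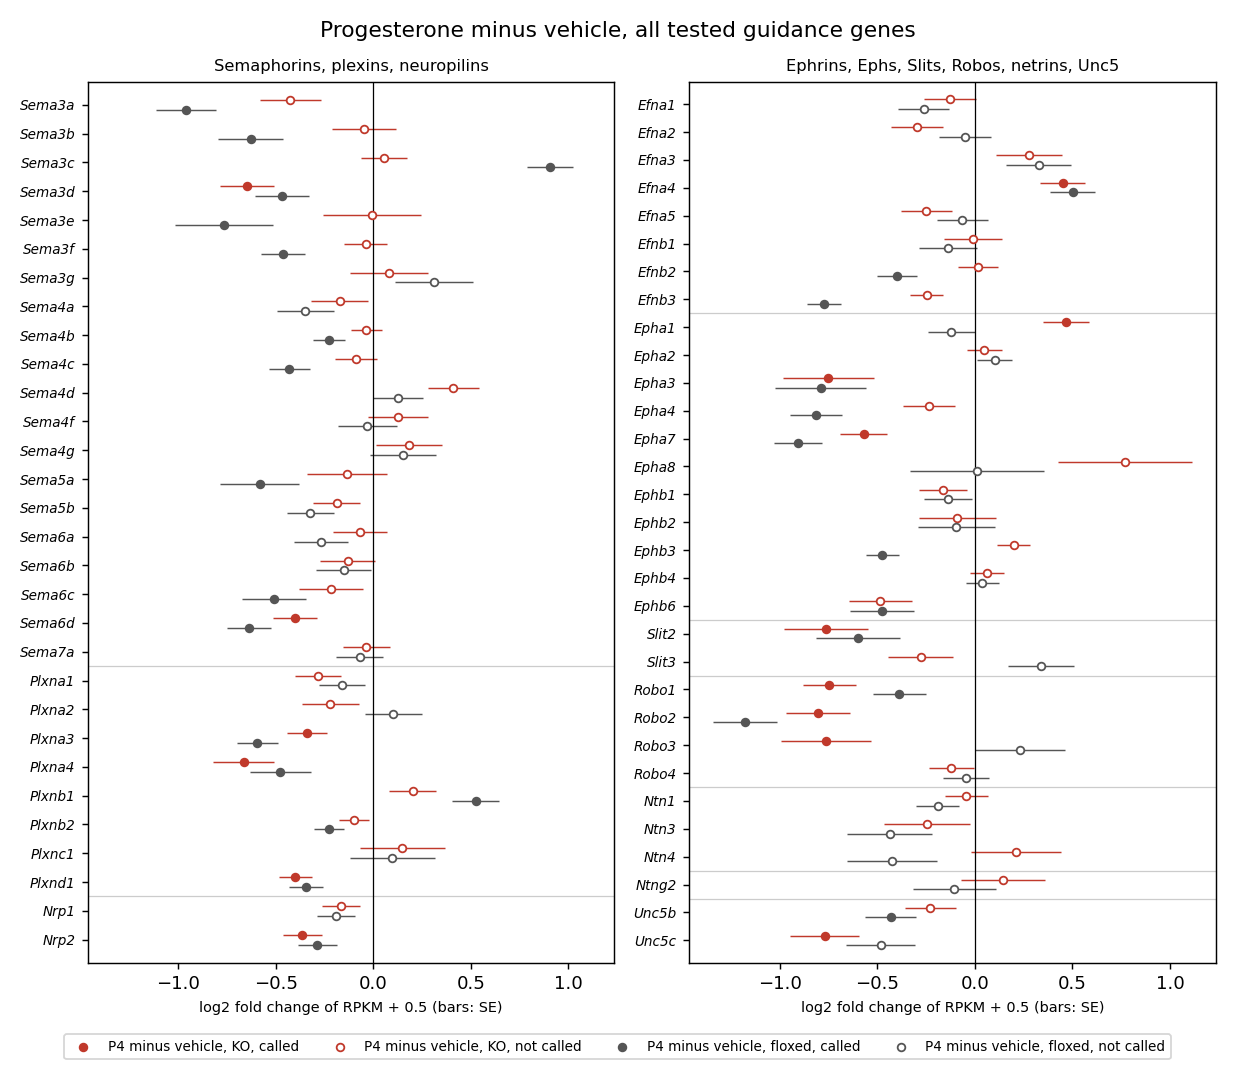
The plot gives the log2 fold change of P4 minus vehicle (horizontal axis, with SE bars) for the 61 tested members, in KO uteri in red and in floxed uteri in grey, with filled points for called changes. Most points lie to the left of 0, and Sema3c lies furthest to the right in floxed uteri.

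Sema3c (chr5:17574281-17730268, plus strand), a secreted semaphorin that binds neuropilins, was the member that rose most in floxed uteri. Floxed P4 libraries had 46.8, 50.1, 54.3 and 52.0 RPKM against 23.1 to 33.8 RPKM (median 26.3) in floxed vehicle libraries, a change of 0.90 ± 0.12 (adjusted p = 8.16e-06) without overlap. In KO uteri P4 libraries had 29.2 to 38.5 RPKM and vehicle libraries 27.5 to 40.9 RPKM, a change of 0.06 that was not called. Plxnb1, the receptor of Sema4d, rose by 0.52 ± 0.12 and Efna4 by 0.50 ± 0.12 in floxed uteri (adjusted p = 0.00293 and 0.00307). Efna4 changed by 0.45 ± 0.11 in KO uteri (adjusted p = 0.0159), and this call was lost without KO P4 library 8 (adjusted p = 0.0747).

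The lower members of floxed uteri were led by receptors and secreted semaphorins. Robo2 had 2.21, 2.12, 1.57 and 1.42 RPKM in floxed P4 libraries against 3.12 to 6.58 RPKM (median 4.96) in floxed vehicle libraries, a change of -1.18 ± 0.16 (adjusted p = 1.65e-05). Sema3a had 2.10, 3.44, 2.75 and 2.64 RPKM against 4.07 to 6.88 RPKM (median 6.02) in floxed P4 and floxed vehicle libraries, a change of -0.96 ± 0.15 (adjusted p = 0.0001). Neither overlapped between treatments. The receptor Epha7 had 1.89, 2.00, 1.37 and 1.53 RPKM in floxed P4 libraries against 2.84 to 3.99 RPKM (median 3.65) in floxed vehicle libraries, a change of -0.91 ± 0.12 (adjusted p = 1.08e-05). Epha4 had 4.32, 3.46, 4.94 and 4.09 RPKM against 6.15 to 8.66 RPKM (median 8.02) in floxed P4 and floxed vehicle libraries, a change of -0.81 ± 0.13 (adjusted p = 0.000124). Efnb3 changed by -0.77 ± 0.09, Sema6d by -0.64 ± 0.11, Sema3b by -0.63 ± 0.17 and Plxna3 by -0.60 ± 0.10 (adjusted p = 8.62e-07, 0.00026, 0.00824 and 0.000238).

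**Figure D4:**
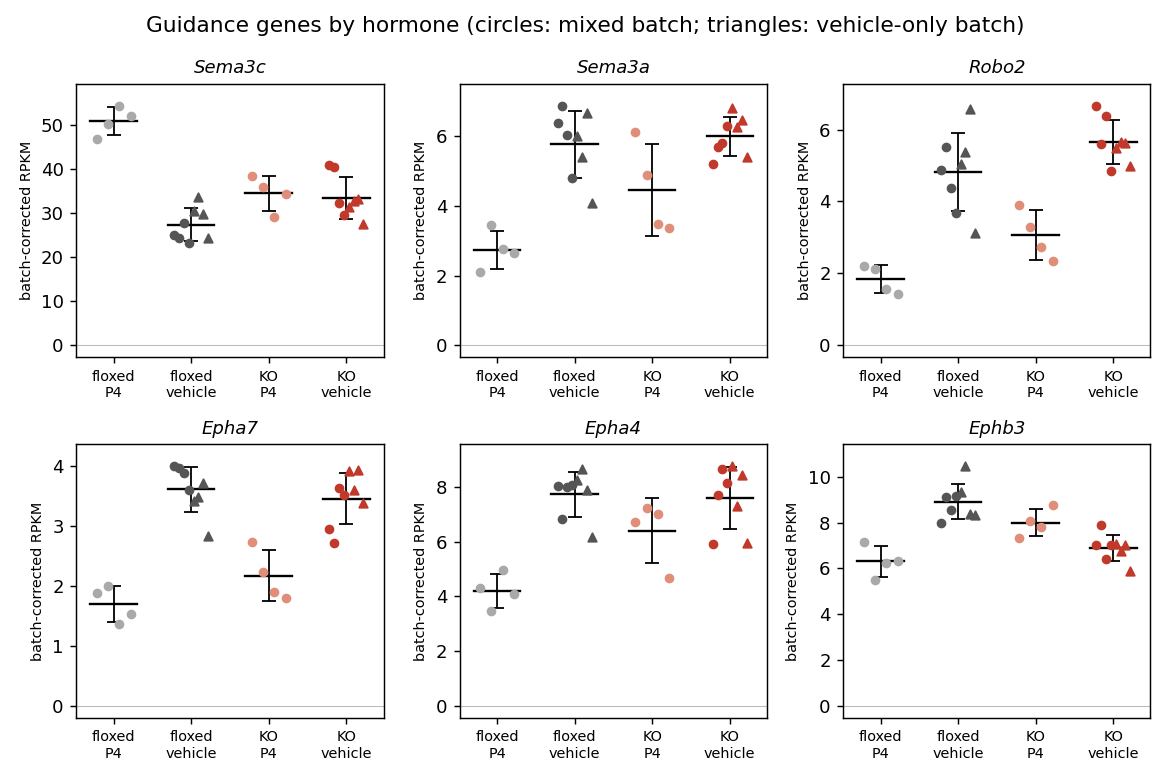
Each panel gives the batch-corrected RPKM of 1 member in every library, for floxed P4, floxed vehicle, KO P4 and KO vehicle uteri, with the mean and SD as bars, circles for the mixed batch and triangles for the vehicle-only batch. Sema3c is highest in floxed P4 libraries, Sema3a, Robo2, Epha7 and Epha4 are lowest there, and Ephb3 is lower in floxed P4 than in floxed vehicle libraries but not lower in KO P4 than in KO vehicle libraries.

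Of the 29 calls in floxed uteri 16 held in each of 24 fits that left out 1 library. Sema3d lost its call without floxed P4 library 9 (adjusted p = 0.0941). Epha3, Plxna4, Sema6c, Unc5b, Ephb6, Plxnb2, Sema3e, Nrp2, Robo1, Sema4b, Sema5a and Slit2 lost theirs in 3 to 16 of the 24 fits, with adjusted p up to 0.229 for Slit2. With floxed P4 library 9 left out 17 members were called in all, and 20 of the 29 held without the 5 libraries with oviduct or squamous markers. Leaving these out lost Epha3, Ephb6, Nrp2, Robo1, Sema3e, Sema4b, Sema4c, Sema6c and Slit2, at adjusted p from 0.0559 (Slit2) to 0.187 (Sema4b). On the RPKM scale 21 of the 29 held, and Sema3b was not called (adjusted p = 0.0894).

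In KO uteri Robo1, Robo2, Robo3 and Slit2 were lower after P4. Robo1 had 10.6, 9.78, 8.07 and 6.30 RPKM in KO P4 libraries against 12.2 to 17.3 RPKM (median 14.8) in KO vehicle libraries, a change of -0.75 ± 0.14 (adjusted p = 0.00119), and Robo2 had 3.91, 3.28, 2.72 and 2.33 RPKM against 4.84 to 6.66 RPKM (median 5.61) in KO P4 and KO vehicle libraries, a change of -0.80 ± 0.16 (adjusted p = 0.00289). Neither gene overlapped between treatments. Robo3, with 2.15 to 4.66 RPKM in KO P4 and 4.05 to 7.55 RPKM in KO vehicle libraries, changed by -0.76 ± 0.23 (adjusted p = 0.042), and this call was lost in 12 of 24 fits that left out 1 library (adjusted p up to 0.166, without KO P4 library 6). In the mixed batch, the one that holds P4 libraries, its change was -0.45 (adjusted p = 0.128), and with no batch term -0.55 (adjusted p = 0.125). Sema3d, Unc5c, Plxna4, Epha7 and Plxnd1 changed by -0.65, -0.77, -0.67, -0.57 and -0.40, and held their calls in each of those fits. Epha1 rose by 0.47 ± 0.12 (adjusted p = 0.0157), a call lost without KO P4 library 4 or 5 (adjusted p up to 0.0572). In the mixed batch alone Epha3 changed by -0.45 and was not called (adjusted p = 0.128). Epha3, Plxna3, Nrp2, Sema6d and Slit2 lost theirs in 21, 12, 3, 4 and 4 of the fits, with adjusted p up to 0.123, 0.154, 0.098, 0.122 and 0.0975. Of the 15 calls 7 held in each, and without KO P4 library 8 there were 9 calls in all. Of the 13 members lower in KO uteri and the 26 lower in floxed uteri, 11 were the same (84.6% of the first list, 42.3% of the second): Epha3, Epha7, Nrp2, Plxna3, Plxna4, Plxnd1, Robo1, Robo2, Sema3d, Sema6d and Slit2. Over all tested genes 478 were lower in both, or 71.8% of those lower in KO uteri and 22.1% of those lower in floxed uteri. The summed stroma markers had medians of 1597 RPKM in KO P4 and 2181 RPKM in KO vehicle libraries. In floxed P4 and floxed vehicle libraries the medians were 2065 and 2274 RPKM. After P4 in KO uteri 3 of the 14 stroma markers were called higher and 3 lower. The part of stroma in the lower members was not tested.

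In floxed uteri after P4, 8 of 19 co-receptors and other ligands were lower (42.1%, against 15.1% of all tested genes) and 3 higher (15.8%, against 7.84%). Flrt2, a ligand of Unc5 receptors, changed by -1.19 ± 0.20, and Tgfbr3, a co-receptor of TGF-beta, by 1.09 ± 0.14 (adjusted p = 0.000145 and 7.05e-06). Of 51 signalling genes 5 were lower in KO uteri (9.80%, against 4.66%) and 0 higher (limma, 1 at an unadjusted p below 0.05), while in floxed uteri 11 were lower (21.6%) and 6 higher (11.8%). Their median change in floxed uteri was -0.05, against -0.06 over all tested genes. The collapsin response gene Dpysl2, a mediator of Sema3a, changed by -0.46 ± 0.11 in KO uteri and by -0.70 ± 0.11 in floxed uteri.

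The difference of the responses, KO minus floxed, was called for 4 of 61 members: 3 positive (4.92%, against 1.46% of all tested genes) and 1 negative (1.64%, against 1.03%; 2.49% in either direction). Its median was 0.13 over members and 0.03 over all genes. Sema3c had the negative difference, -0.85 ± 0.15 (adjusted p = 0.00256). Its level rose with P4 in floxed uteri and changed by 0.06 in KO uteri. Ephb3 had a difference of 0.67 ± 0.11 (adjusted p = 0.000976). It had 7.34, 8.09, 7.81 and 8.76 RPKM in KO P4 libraries against 5.89 to 7.89 RPKM in KO vehicle libraries, and 7.15, 5.50, 6.25 and 6.34 RPKM in floxed P4 libraries against 7.99 to 10.5 RPKM in floxed vehicle libraries. Efnb3, at 0.53 ± 0.11 (adjusted p = 0.0102), changed by -0.25 in KO uteri and by -0.77 in floxed uteri. On the RPKM scale its difference was 2.90 ± 1.80 RPKM (adjusted p = 0.51), and without the 5 libraries with oviduct or squamous markers it was not called. Epha1 had a difference of 0.59 ± 0.16 (adjusted p = 0.0451), with 4.92 to 6.33 RPKM in KO P4, 3.22 to 4.67 RPKM in KO vehicle, 2.81 to 4.80 RPKM in floxed P4 and 3.76 to 4.90 RPKM in floxed vehicle libraries. That call was lost in 18 of 24 fits that left out 1 library (adjusted p up to 0.128). Epha1 shares 236 exon bases with Zyx on the other strand, and Zyx had a difference of -0.24 (adjusted p = 0.343).

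The summed level of 14 epithelium markers was 481 to 683 RPKM in KO P4, 347 to 516 RPKM in KO vehicle, 413 to 651 RPKM in floxed P4 and 449 to 683 RPKM in floxed vehicle libraries. In KO against floxed uteri 1 marker was higher and 7 were lower after vehicle, and 4 were higher after P4. None of the 14 was called for the difference in response, whose median over them was 0.54. Ephb3 and Epha1 are known from epithelia, and the part of these markers in their differences was not tested.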

How the data were processed

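Gene-level RNA abundance was measured in 24 uterus libraries. Per the labels, Trizol RNA was treated with DNase on cleanup columns and sequenced from TruSeq libraries. Cutadapt 2.7, TopHat, Partek and the build mm10 are named in the submitters' processing notes. How reads were counted, against which gene models and with what use of strand, and how batches were corrected: not given in the sources used here. A single table of 22943 genes, in batch-corrected RPKM, was deposited by the authors, and 6.66% of values lie below 0. In all 13688 genes whose vehicle mean exceeded 1, the 2 batches had the same vehicle mean in the deposited values (relative tolerance 0.0001), which shows the added constants. The planned test, written for uncorrected RPKM, was used.

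Values below 0 were set to 0 and 0.5 was added before taking log2, so fold changes of low genes come out smaller. A gene needed 1 RPKM in 4 or more libraries to be tested, which left 14284 genes and 61 of 71 members. The 4 groups and batch were fitted with limma 3.58.1 in R 4.3.3, with trended and robust empirical Bayes moderation, with 19 residual and 3.34 prior degrees of freedom. Differences in RPKM come from the same model on unlogged values. Adjustment was by Benjamini-Hochberg over all tested genes, and the fit was tested on simulated data. Alternatives were pseudocounts of 1 and 0.1, a filter of 5 RPKM or none, no batch term, each batch alone, quantile normalization, the RPKM scale, a replicate block, and leaving out 5 libraries with oviduct or squamous markers or each library in turn. Depth was estimated from the value of 1 read, in at least 19 genes per library, and no count test was run. Libraries 1a and 1b, and 11a and 11b, carry related numbers in different batches. Their residuals correlated at -0.39 and 0.01, and they were kept as separate samples.

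Gene positions are those of GENCODE M21 (GRCm38) and promoters those of RefSeq (GRCm38.p6), which matched 61 of the 71 members. Members and gene lists were chosen with earlier results of these data known. Values by library are given for up to 10 called members per comparison with the largest log2 fold change, provided the higher group averaged 1 RPKM or more, and for the called member of each family with the smallest adjusted p. Other called members, ligands, receptors and neighbours of a named member are given by their change. Marker genes Uchl1 and Sox10 were chosen after their values were seen.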

Additional observations from a re-analysis of the deposited data

Results flagged for a closer look

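In 32 members named above, 128 groups of 4 or 8 libraries were examined for a library far from the others, and 4 were found. Chance alone gives about 1 in 20 groups. Nrp2 had 8.44 RPKM in KO vehicle library 13, against 11.1 to 12.03 RPKM in the other KO vehicle libraries. Plxnc1 had 7.04 RPKM in KO vehicle library 10, against 3.22 to 4.62 RPKM in the others, all of which were above every floxed vehicle library. Plxnd1 had 34.1 RPKM in floxed P4 library 1, against 30.0 to 30.6 RPKM in the other floxed P4 libraries. Sema3b had 5.85 RPKM in floxed vehicle library 7, against 4.17 to 4.81 RPKM in the others.

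Of the tested members, 4 differed between KO and floxed uteri in their response to P4 by the interaction term of the limma model. The difference, KO response minus floxed response in log2, was 0.67 for Ephb3, 0.59 for Epha1, 0.53 for Efnb3 and -0.85 for Sema3c.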

How the results depend on the processing

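The count of called members stayed within 1.5 times the reported one, in all 5 comparisons, with pseudocounts of 1 and 0.1, no filter, no batch term, the mixed batch alone and the RPKM scale. In KO against floxed vehicle uteri 31 members were called, and 11 in the vehicle-only batch alone, where Epha3 changed by 0.071 (limma, adjusted p = 0.907), against -0.52 in both batches. That batch has 8 libraries, and its fit called 722 of 14284 tested genes higher and 456 lower, against 1878 and 1638 in both batches. The cause of the lost calls and of the changed sign of Epha3 was not tested. For P4 against vehicle in floxed uteri 29 were called, and 16 with quantile normalization. That normalization called 1608 of all tested genes lower and 1395 higher, against 2160 and 1120 in the reported fit. For P4 against vehicle in KO uteri 15 were called, 8 with a filter of 5 RPKM, which tests fewer genes, and 2 without the 5 libraries with oviduct or squamous markers.

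Fits that left out 1 library called 27 to 32 members for KO against floxed uteri after vehicle, 15 to 22 after P4, 17 to 31 for P4 against vehicle in floxed uteri, 9 to 16 in KO uteri and 3 to 6 for the difference in response. The lowest counts for P4 came without floxed P4 library 9 and without KO P4 library 8.

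The labels do not say that replicate numbers pair samples, so the numbers were not used in the reported fit. In 6 of 11 pairs of libraries with the same number in different groups, residuals correlated above 0.1. The correlations ran from -0.26 (floxed P4 1 and floxed vehicle 1b) to 0.64 (floxed P4 2 and floxed vehicle 2). Whether same-numbered libraries are related samples was not tested, and the reported p-values take them as unrelated. With a replicate block 20 members were called for KO against floxed uteri after vehicle and 10 after P4. For P4 against vehicle 23 were called in floxed uteri and 1 in KO uteri. For the difference in response 0 were called, where limma without the block called 4, and the block left 12 members at an unadjusted p below 0.05. Over all 14284 tested genes the block called, in the same order, 1392, 478, 1177, 66 and 9 higher. It called 1043, 344, 1861, 96 and 17 lower, with 7 residual degrees of freedom against 19. The low member counts thus go with few calls over all genes. Of the reported calls, 18 of 31, 7 of 20, 22 of 29, 1 of 15 and 0 of 4 held in the same direction. The 7 held after P4 were Efnb3, Plxnc1, Robo2, Robo3, Sema3a, Sema4f and Slit3. Sema3c, reported at -0.56 there, changed by -0.10 with the block (limma, adjusted p = 0.65). The cause of these losses was not tested. Of the 10 members under the filter, tested with no filter, 3 were called in KO against floxed uteri after vehicle, 3 after P4, 3 for P4 against vehicle in floxed uteri, 1 in KO uteri and 0 for the difference in response (limma, 2 at an unadjusted p below 0.05). Over all 22943 genes that fit called, in the same order, 2467, 2120, 1290, 694 and 232 higher. It called 1890, 1104, 2298, 714 and 219 lower.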
